A study of Mus musculus with 15 samples.

Results

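The genes described here are the insulin-like growth factor (IGF) system of mouse lung fibroblasts, 10 genes of the 48440 in the count table. They were chosen by name, as the ligands Igf1 and Igf2, the receptors Igf1r and Igf2r and the binding proteins Igfbp2 to Igfbp7. All 10 were found, each on 1 line of the count table, and all 10 passed the filter on low counts. RNA was sequenced from primary lung fibroblasts of C57BL/6 mice in 5 groups of 3 libraries. The groups were Atm-/- cells at passage 8 (p8) and at passage 2 (p2), Atm+/+ cells labelled passage 2 and harvested 10 days after 10 Gy of X-rays, called irradiated below, and untreated Atm+/+ cells at passage 8 and at passage 2. Atm encodes a protein kinase that is activated by breaks in DNA. Per the design text, 3 strains of cells were set up from each genotype, and all cultures grew under low oxygen. The labels give neither the age nor the sex of the mice, nor the part of Atm that the mutation removes. Irradiated cells spent 10 more days before harvest, so the dose and the time after it cannot be told apart.

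Igf1 and Igf2 are secreted growth factors that act through the tyrosine kinase Igf1r, which signals by way of the Irs adaptors to PI3K, AKT and TOR and restrains the FOXO transcription factors. Igf2r, which is also the mannose 6-phosphate receptor, takes up Igf2 and sends it to lysosomes. The binding proteins hold the ligands outside the cell and can block or prolong their action until proteases such as Pappa cut them. Igfbp7 binds IGFs weakly. Fibroblasts are a known source of Igf1 in the lung, and several binding proteins are known among the proteins that senescent cells secrete.

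Of the 4 binding protein genes called with passage in both genotypes and with irradiation, Igfbp4 and Igfbp5, which fell, and Igfbp2, the neighbour of Igfbp5, which rose, are shown by the 250 bases before their RefSeq start (GRCm38.p6), 5′ to 3′ on the gene's strand. These are Igfbp4 (chr11:99040994-99041243, plus strand), Igfbp5 (chr1:72874866-72875115, minus strand) and Igfbp2 (chr1:72824230-72824479, plus strand, the nearer of its RefSeq starts to the annotated gene start). Capitals mark matches to 2 motifs searched on both strands, the TATA box TATAAA and the GC box GGGCGG.
Igfbp4: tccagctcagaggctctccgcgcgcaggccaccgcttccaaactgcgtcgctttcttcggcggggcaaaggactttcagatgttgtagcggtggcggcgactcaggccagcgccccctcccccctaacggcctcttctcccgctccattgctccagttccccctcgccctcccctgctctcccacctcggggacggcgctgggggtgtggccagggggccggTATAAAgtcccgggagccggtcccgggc
Igfbp5: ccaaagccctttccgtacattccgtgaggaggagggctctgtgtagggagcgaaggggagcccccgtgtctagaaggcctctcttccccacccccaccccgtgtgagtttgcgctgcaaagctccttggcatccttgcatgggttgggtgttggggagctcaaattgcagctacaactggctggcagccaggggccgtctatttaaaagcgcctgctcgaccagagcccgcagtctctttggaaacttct
Igfbp2: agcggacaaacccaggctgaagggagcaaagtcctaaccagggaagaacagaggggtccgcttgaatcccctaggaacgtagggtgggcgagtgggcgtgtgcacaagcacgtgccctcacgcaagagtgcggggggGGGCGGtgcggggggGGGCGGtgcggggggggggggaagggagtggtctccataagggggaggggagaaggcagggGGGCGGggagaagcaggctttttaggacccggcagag
Igfbp4 had 1 TATA box, Igfbp2 had 3 GC boxes, and these letters were not in the Igfbp5 window. In 32851 RefSeq promoters of 250 bases before and 50 after the start, 13.6% held TATAAA and 35.7% held GGGCGG on either strand. The FOXO core TGTTTAC, also searched on both strands, was in 3.65% of promoters and in none of those of the 10 genes, all of which had an entry. Igfbp2 and Igfbp5 are neighbours that face each other on chromosome 1, with 5457 bases between their ends.

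Library totals ran from 13.6 to 39.2 M counts. A pair of libraries stood apart, Atm+/+ p2 replicate 3 and Atm-/- p8 replicate 3, with 17240 and 15037 genes detected at equal depth against 20112 to 21942 in the other 13. Calls, list counts and TPM summaries are also given without both, as 13 libraries, a choice made after seeing the data. Fibroblast markers (10 genes, among them Col1a1 and Pdgfra) summed to between 9513 and 13400 counts per M counts (CPM, with M for mega) in Atm-/- p8 libraries and to between 22860 and 36370 CPM in the other 12. Macrophage markers (10 genes) summed to between 35.3 and 57.2 CPM in Atm-/- p8, 915 and 1458 in Atm-/- p2, 1223 and 2179 in irradiated cells, 63.7 and 98.9 in Atm+/+ p8, and 2036 and 3463 in Atm+/+ p2. Ptprc and Adgre1, which define leukocytes and macrophages, were at 0 counts in all 3 Atm-/- p8 libraries. Endothelial markers (8 genes) lay between 14.8 and 38.1 CPM in Atm-/- p8, 356 and 569 in Atm-/- p2, 91.9 and 272 in irradiated cells, 7.77 and 10.5 in Atm+/+ p8, and 439 and 940 in Atm+/+ p2. Smooth muscle and pericyte markers (8 genes) lay between 7419 and 8597 CPM in Atm-/- p8, 9026 and 11120 in Atm-/- p2, 19160 and 22020 in irradiated cells, 13980 and 15060 in Atm+/+ p8, and 5249 and 6607 in Atm+/+ p2. Most of this sum was Acta2 and Tagln, which averaged 3444 and 1957 CPM in Atm+/+ p2 and 7807 and 4800 CPM in Atm+/+ p8. Rgs5, Mcam and Cspg4 went down, from 22.3, 185 and 9.74 CPM to 0.15, 63.4 and 2.09 CPM in these groups. Both passage 8 groups lay below all passage 2 groups in the macrophage and endothelial sums, and in bulk RNA fewer cells of a type and less RNA per cell cannot be told apart. The part of these cells in the results below was not tested.

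**Figure D1:**
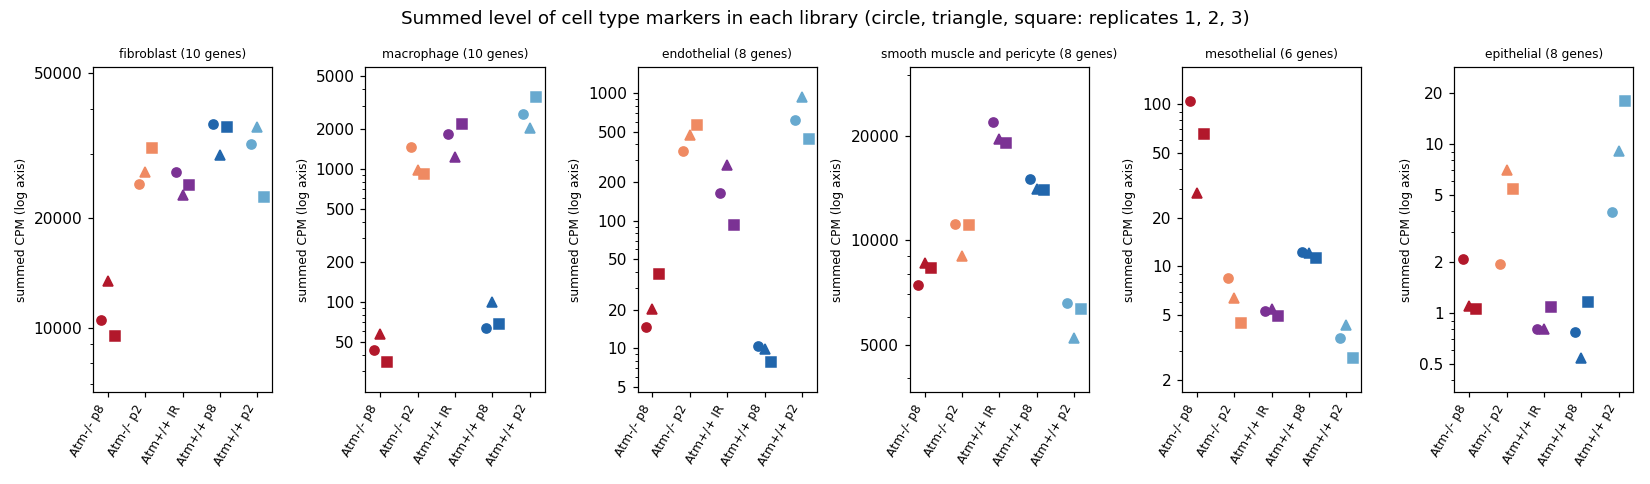
Summed CPM (log axis) of the 6 marker lists in each of the 15 libraries, grouped as Atm-/- p8, Atm-/- p2, irradiated Atm+/+, Atm+/+ p8 and Atm+/+ p2. Macrophage and endothelial sums are lowest in both passage 8 groups, and the fibroblast sum is lowest in Atm-/- p8.

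Levels are compared between genes in transcripts per M transcripts (TPM), which are per length. Binding protein transcripts far outnumbered those of the ligands in every group. Their sum was 1935 ± 690 TPM in Atm-/- p8, 3709 ± 233 in Atm-/- p2, 2872 ± 9.26 in irradiated cells, 3690 ± 69.7 in Atm+/+ p8 and 5188 ± 1256 in Atm+/+ p2 (SD, n = 3 each). Per TPM of the 2 ligands this was 65.4 ± 7.38, 58.6 ± 2.80, 28.2 ± 1.86, 46.4 ± 2.63 and 64.0 ± 11.5 TPM in the same order, so irradiated cells had the fewest binding protein transcripts per ligand transcript, with no overlap with any other group. Igf1 made up 86.6% of the ligand TPM on average in Atm-/- p8, 86.8% in Atm-/- p2, 92.6% in irradiated cells, 88.2% in Atm+/+ p8 and 89.6% in Atm+/+ p2. In 13 libraries the binding protein sum averaged 2327 TPM in Atm-/- p8 and 5872 TPM in Atm+/+ p2 (n = 2 each), the ratio to the ligands 65.7 in Atm-/- p8 and 70.5 in Atm+/+ p2, and the Igf1 share 80.5% in Atm-/- p8 and 89.1% in Atm+/+ p2.

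The order of the binding proteins differed between groups. In Atm+/+ p2 cells Igfbp4 led with 2713 ± 263 TPM, above Igfbp7 with 1128 ± 549 TPM in every library, while Igfbp7 overlapped with Igfbp3 (794 ± 412 TPM). Igfbp7 led in the other 4 groups. It had 1179 ± 687 TPM in Atm-/- p8, 1610 ± 99.6 TPM in Atm-/- p2, 1770 ± 48.1 TPM in irradiated cells and 1899 ± 153 TPM in Atm+/+ p8 (SD, n = 3 each). The runner-up was Igfbp6 in Atm-/- p8, at 353 ± 37.3 TPM, and Igfbp4 in the other 3, at 1011 ± 159 TPM in Atm-/- p2, 468 ± 106 TPM in irradiated cells and 1170 ± 112 TPM in Atm+/+ p8. In 13 libraries Igfbp7 averaged 1574 TPM in Atm-/- p8 and 1441 TPM in Atm+/+ p2, where it lay between 1352 and 1530 TPM and no longer overlapped with Igfbp3, at 680.5 to 1251 TPM.

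As a share of the 6 binding proteins' TPM, Igfbp4 was 9.08% ± 4.84 in Atm-/- p8, 27.2% ± 3.17 in Atm-/- p2, 16.3% ± 3.74 in irradiated cells, 31.7% ± 3.57 in Atm+/+ p8 and 53.7% ± 8.81 in Atm+/+ p2. Igfbp7 took 56.6% ± 20.6, 43.6% ± 5.24, 61.6% ± 1.81, 51.4% ± 3.18 and 20.8% ± 6.58 in the same order (SD, n = 3 each). Igfbp5 was at 0.70% ± 0.06 in Atm-/- p8 and 8.09% ± 0.73 in Atm-/- p2, against 1.50% ± 0.31 in Atm+/+ p8 and 5.28% ± 1.06 in Atm+/+ p2. In Atm-/- p8 replicate 3 Igfbp7 was at 33.8%, and in Atm+/+ p2 replicate 3 at 13.2%, each the lowest of its group. In 13 libraries the share of Igfbp7 was 67.95% in Atm-/- p8 and 24.6% in Atm+/+ p2, that of Igfbp4 8.66% in Atm-/- p8 and 49.04% in Atm+/+ p2, and that of Igfbp5 0.71% in Atm-/- p8 and 5.75% in Atm+/+ p2. At the low end, Igf2, Igf1r and Igf2r each averaged at most 23.3 TPM in every group, or 27.7 TPM in 13 libraries.

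**Figure D2:**
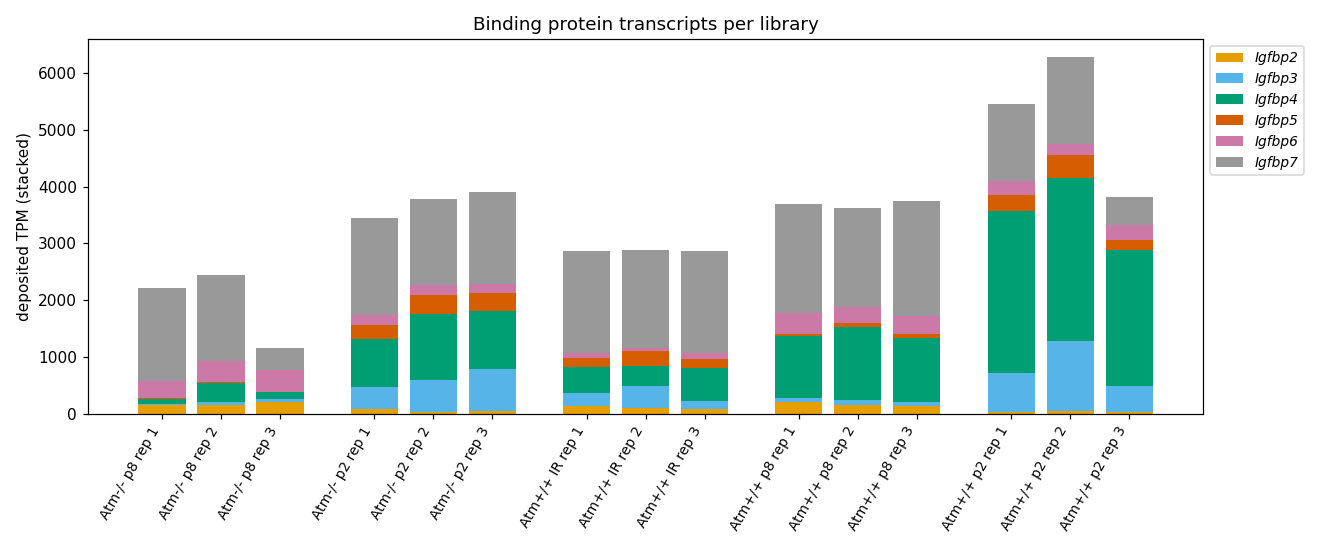
Deposited TPM of the 6 binding proteins, stacked, in each library; colours are genes and bars run from Atm-/- p8 on the left to Atm+/+ p2 on the right. The Igfbp4 segment is tallest in the 3 Atm+/+ p2 libraries, and Atm-/- p8 replicate 3 has the shortest bar.

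Levels of one gene across libraries are given next in CPM, for replicates 1, 2 and 3 in this order. Igf1 (chromosome 10, 87858265 to 87937042, plus strand, GRCm38 here and below) was at 106, 165 and 122 CPM in Atm-/- p8 and 222, 227 and 233 CPM in Atm-/- p2. It was at 329, 351 and 359 CPM in irradiated cells, 299.5, 297 and 294 CPM in Atm+/+ p8 and 343, 311 and 419 CPM in Atm+/+ p2. Every Atm-/- library lay below every Atm+/+ library, and the passage 8 Atm-/- libraries lay below those at passage 2. Igf2 (chromosome 7, 142650766 to 142666816, minus strand), the fetal growth ligand, was at 24.7, 16.9 and 0.964 CPM in Atm-/- p8, the last from 11 counts. It lay between 18.9 and 27.2 CPM in Atm-/- p2, 16.5 and 21.7 in irradiated cells, 21.4 and 31.2 in Atm+/+ p8, and 23.7 and 30.04 in Atm+/+ p2. Apart from that 1 library the 5 groups lay close together.

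Igf1r (chromosome 7, 67952827 to 68233668, plus strand), the signalling receptor, was at 81.8, 90.03 and 73.03 CPM in Atm-/- p8 and 59.3, 62.2 and 63.5 CPM in Atm-/- p2. It was at 75.8, 74.04 and 77.1 CPM in irradiated cells, 94.4, 99.4 and 97.7 CPM in Atm+/+ p8 and 41.8, 48.4 and 17.5 CPM in Atm+/+ p2. The Atm+/+ p2 libraries were the lowest 3 of all, with replicate 3 far below its group. Igf2r (chromosome 17, 12682406 to 12769664, minus strand), the receptor for uptake, lay between 61.2 and 107 CPM in Atm-/- p8, 98.99 and 104 in Atm-/- p2, 105 and 109.9 in irradiated cells, 89.6 and 111 in Atm+/+ p8, and 112 and 181 in Atm+/+ p2. The Atm+/+ p2 libraries were the highest 3 of all, by a small margin in the lowest of them, and the other 12 lay between 61.2 and 111 CPM.

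Igfbp2 (chromosome 1, 72824503 to 72852474, plus strand), which binds both ligands, was at 137, 133 and 275 CPM in Atm-/- p8 and 59.5, 26.8 and 39.2 CPM in Atm-/- p2. It was at 90.3, 67.9 and 57.7 CPM in irradiated cells, 171, 120.2 and 105 CPM in Atm+/+ p8 and 27.7, 27.5 and 32.8 CPM in Atm+/+ p2. Passage 8 libraries were above passage 2 libraries in both genotypes without overlap. Igfbp3 (chromosome 11, 7206086 to 7213923, minus strand), the main carrier of IGFs in blood, was at 21.04, 76.3 and 115 CPM in Atm-/- p8 and 607, 757 and 1027 CPM in Atm-/- p2. It was at 296, 459 and 181 CPM in irradiated cells, 98.97, 132 and 91.2 CPM in Atm+/+ p8 and 1147, 1706 and 952 CPM in Atm+/+ p2. Here the passage 8 libraries were the low ones, and the irradiated libraries lay between those of the 2 passages.

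Igfbp4 (chromosome 11, 99041244 to 99054392, plus strand), an inhibitor of IGF action that Pappa cleaves, was at 219, 809 and 431 CPM in Atm-/- p8 and 2006, 2484 and 2305 CPM in Atm-/- p2. It was at 935, 708 and 1157 CPM in irradiated cells, 2569, 3080 and 2425 CPM in Atm+/+ p8 and 7630, 6192 and 8061 CPM in Atm+/+ p2. Atm+/+ p2 stood above every other group, and the highest Atm-/- p8 library lay within the range of the irradiated ones. Igfbp5 (chromosome 1, 72857932 to 72874884, minus strand), which can enhance or inhibit IGF action and binds the matrix, was at 57.9, 72.8 and 46.3 CPM in Atm-/- p8 and 941, 1110 and 1123 CPM in Atm-/- p2. It was at 525, 784 and 488 CPM in irradiated cells, 163, 242 and 190.3 CPM in Atm+/+ p8 and 1155, 1368 and 869.6 CPM in Atm+/+ p2. The 2 passage 2 groups overlapped, and the passage 8 groups did not.

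Igfbp6 (chromosome 15, 102144362 to 102149511, plus strand), which prefers Igf2, was at 231, 264 and 416 CPM in Atm-/- p8 and 116, 115 and 102 CPM in Atm-/- p2. It was at 50.3, 34.3 and 64.1 CPM in irradiated cells, 258, 195 and 199 CPM in Atm+/+ p8 and 195, 125 and 255 CPM in Atm+/+ p2. The irradiated libraries were the lowest 3 of all. Igfbp7 (chromosome 5, 77349240 to 77408041, minus strand) was at 1307, 1172 and 460.3 CPM in Atm-/- p8 and 1129, 1034 and 527 CPM in Atm+/+ p2, the third of each being the library that stood apart. The other 9 libraries held between 1016 and 1427 CPM.

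**Figure D3:**
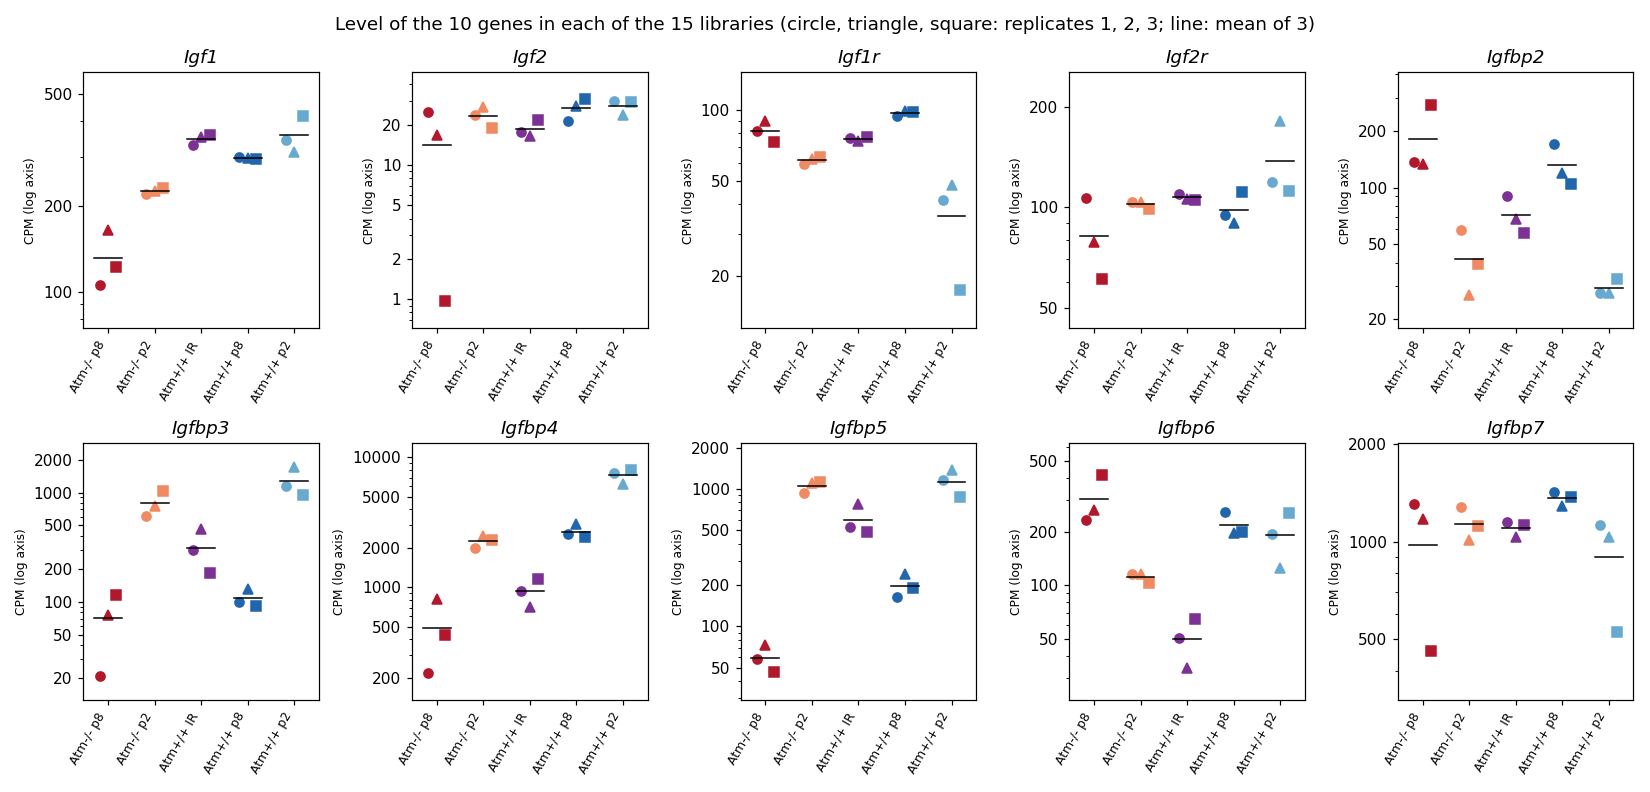
CPM (log axis) of each of the 10 genes in every library, with the groups from Atm-/- p8 on the left to Atm+/+ p2 on the right, replicates as symbols and the group mean as a line. Igfbp3, Igfbp4 and Igfbp5 differ most between groups, while Igf2 and Igfbp7 are level apart from 1 or 2 libraries.

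Passage within Atm-/- cells compares passage 8 with passage 2. The binding proteins Igfbp3, Igfbp4 and Igfbp5 and the ligand Igf1 fell, and Igfbp2 and Igfbp6 rose. Igfbp5 fell by 4.16 in log2 (SE 0.27, edgeR adjusted p = 2.34e-06), the fourth lowest p of 18167 genes. Igfbp3 fell by 3.50 (SE 0.53, edgeR adjusted p = 0.000555), Igfbp4 by 2.22 (SE 0.36, edgeR adjusted p = 0.000961) and Igf1 by 0.79 (SE 0.16, edgeR adjusted p = 0.00413). Igfbp2 rose 4.33-fold (log2 2.12, SE 0.34, edgeR adjusted p = 0.000832) and Igfbp6 2.74-fold (log2 1.45, SE 0.29, edgeR adjusted p = 0.00402). Groups did not overlap for any of these 6 genes, nor for Igf1r, which did not pass. The share of all genes without overlap was not computed, here or below. Of the 10 genes 2 rose and 4 fell, against 4.76% and 8.25% of all genes tested, and 4 did not pass. Their median log2 fold change was -0.50, and that of all genes was -0.08. In 13 libraries 7 were called, against 12.8% of all genes higher and 14.4% lower, Igf1r being the addition, at 0.50 (edgeR adjusted p = 0.000518). Leaving out Atm+/+ p2 replicate 3 alone also called Igf1r (0.42, edgeR adjusted p = 0.0151). A fit of only these 2 groups lost Igf1 (edgeR adjusted p = 0.0758) and Igfbp4 (edgeR adjusted p = 0.0503). Of the 10 fibroblast markers 6 fell here, and 4 of 5 mesothelial markers tested rose.

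Passage within Atm+/+ cells makes the same comparison in the presence of Atm. Igfbp3, Igfbp4 and Igfbp5 fell, Igfbp2 rose and the receptor Igf1r rose. Igfbp3 fell by 3.56 in log2 (SE 0.53, edgeR adjusted p = 0.000315), Igfbp5 by 2.51 (SE 0.25, edgeR adjusted p = 1.18e-05) and Igfbp4 by 1.44 (SE 0.35, edgeR adjusted p = 0.0102). Igfbp2 rose 4.50-fold (log2 2.17, SE 0.34, edgeR adjusted p = 0.000458) and Igf1r 2.70-fold (log2 1.43, SE 0.26, edgeR adjusted p = 0.00149). Of the 10 genes 2 rose and 3 fell, against 9.80% and 13.5% of all genes, and 5 did not pass. The median was -0.16 for the 10 genes and 4e-04 for all genes. In 13 libraries 7 were called, against 19.8% of all genes higher and 20.3% lower, with Igf2r (-0.58, edgeR adjusted p = 0.0102) and Igfbp7 (0.36, edgeR adjusted p = 0.0305) added. Leaving out Atm-/- p8 replicate 3 alone called Igfbp7 as well (0.64, edgeR adjusted p = 0.0354). Igfbp4 was lost without Atm+/+ p8 replicate 3 (edgeR adjusted p = 0.053). In both genotypes macrophage and endothelial markers fell as well, 10 of 10 and 8 of 8. With Atm+/+ passage 3 of 10 fibroblast and 3 of 5 mesothelial markers tested rose, and 4 of 5 epithelial markers tested fell. Smooth muscle and pericyte markers were split in Atm+/+ cells, 4 of 8 rising and 3 falling. In Atm-/- cells 3 of these 8 fell and 0 rose, and 2 of 5 epithelial markers tested fell. The part of all these markers in the changes of the binding proteins was not tested.

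The difference between the 2 passage effects was tested as an interaction, the change in Atm-/- cells minus that in Atm+/+ cells. Igfbp5 fell more in Atm-/- cells, with a difference of -1.65 (SE 0.33, edgeR adjusted p = 0.0226) between log2 fold changes of -4.16 and -2.51. It was the only 1 of the 10 genes to pass, in the direction in which 1.97% of all genes passed, and 0 passed in the other, against 2.46%. Igfbp2 and Igfbp3 had differences of -0.05 (95% interval -1.04 to 0.93) and 0.06 (95% interval -1.39 to 1.52), so the size of a difference up to those limits was not resolved. The median difference was -0.58 for the 10 genes and -0.14 for all genes. The call of Igfbp5 rested on several libraries. Leaving out Atm-/- p2 replicate 2 (edgeR adjusted p = 0.0668) or 3 (0.0703), Atm+/+ p8 replicate 2 (0.0592) or 3 (0.0696), or Atm+/+ p2 replicate 1 (0.0576) ended it, with differences between -1.69 and -1.49, as did limma on log2(TPM + 1) without a filter (-2.17, adjusted p = 0.0657). In the same interaction 5 of 10 fibroblast markers fell and 0 rose (median -1.93). Of the 8 smooth muscle and pericyte markers 4 fell and 1 rose (median -1.55). Of the 8 endothelial markers 2 rose and 0 fell (median 2.26), and of the 10 macrophage markers 0 rose and 1 fell (median -0.65). The part of all these markers in the Igfbp5 result was not tested. In 13 libraries Igfbp5 passed (-1.35, edgeR adjusted p = 0.0148), as did Igf1r (-0.63, edgeR adjusted p = 0.00696), beside 6.54% of all genes higher and 7.28% lower. Igf1r also passed without Atm+/+ p2 replicate 2 (edgeR adjusted p = 0.0185) or 3 (0.0372), Igfbp6 without Atm+/+ p2 replicate 2 (0.0159), and Igf1 (0.0243) and Igfbp4 (0.03) without Atm-/- p8 replicate 2.

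Genotype at passage 8 compares Atm-/- with Atm+/+ cells. Igf1, Igfbp4 and Igfbp5 were lower without Atm. Igfbp4 fell by 2.47 in log2 (SE 0.36, edgeR adjusted p = 0.0018), Igfbp5 by 1.75 (SE 0.24, edgeR adjusted p = 0.00133) and Igf1 by 1.18 (SE 0.16, edgeR adjusted p = 0.00109), with no overlap between groups. Of the 10 genes 0 rose and 3 fell, against 5.03% and 4.29% of all genes, and 7 did not pass. Igf1r, which did not pass, was at -0.25 (95% interval -0.80 to 0.30), also with no overlap between groups. Igf2 was at -0.89 (95% interval -2.19 to 0.41), a value that rests on the library with 11 counts. The median was -0.54 for the 10 genes and -0.08 for all. The same 3 were called in 13 libraries, beside 13.3% of all genes higher and 11.8% lower, and without any 1 library, and none in a fit of only these 2 groups (edgeR adjusted p = 0.0725 to 0.0947), in which 18 genes passed. Of the 10 fibroblast markers 8 fell in this comparison and 1 rose, 5 of 8 smooth muscle and pericyte markers fell and 1 rose, and 4 of 5 mesothelial markers tested rose, to sums between 28.2 and 105 CPM in Atm-/- cells, against 11.2 and 12.3 CPM in Atm+/+ cells. Of the 10 macrophage markers 0 rose and 3 fell (median -2.03), and of the 8 endothelial markers 3 rose and 0 fell (median 1.93). The part of all these markers in the result was not tested.

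Genotype at passage 2 asks the same of early cultures. Igfbp4 was lower in Atm-/- cells, by 1.69 in log2 (SE 0.35, edgeR adjusted p = 0.0396), with no overlap between groups. Of the 10 genes 0 rose and 1 fell, against 0.628% and 0.341% of all genes, and 9 did not pass. Igf1 was at -0.65 (SE 0.16, edgeR adjusted p = 0.0762) and Igf1r at 0.78 (SE 0.26, edgeR adjusted p = 0.192). Groups also did not overlap for Igf1, Igf1r, Igf2r and Igfbp6, none of which passed. Igfbp5 was at -0.10 (95% interval -0.60 to 0.41). The median was -0.34 for the 10 genes and 0.04 for all. Of the 8 smooth muscle and pericyte markers 3 rose and 0 fell here, and 0 of 10 macrophage markers passed (median -1.01). The summed CPM of both lists, given above, did not overlap between these groups. The part of these markers in the result was not tested. The call of Igfbp4 was marginal, since leaving out any 1 library other than Atm+/+ p2 replicate 2 or one of the Atm-/- p8 libraries lost it, with edgeR adjusted p of 0.0577 to 0.201 and log2 fold changes of -1.75 to -1.58. Without Atm+/+ p2 replicate 2, Igf1 (edgeR adjusted p = 0.0239), Igf1r (0.0299) and Igfbp6 (0.042) passed beside Igfbp4. Without Atm-/- p8 replicate 1, 2 or 3, Igf1 passed (edgeR adjusted p = 0.0458, 0.0264 and 0.0356). In 13 libraries 3 of the 10 were called, against 3.27% of all genes higher and 2.08% lower, namely Igfbp4, Igf1 (-0.51, edgeR adjusted p = 0.0484) and Igf1r (0.47, edgeR adjusted p = 0.00674).

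**Figure D4:**
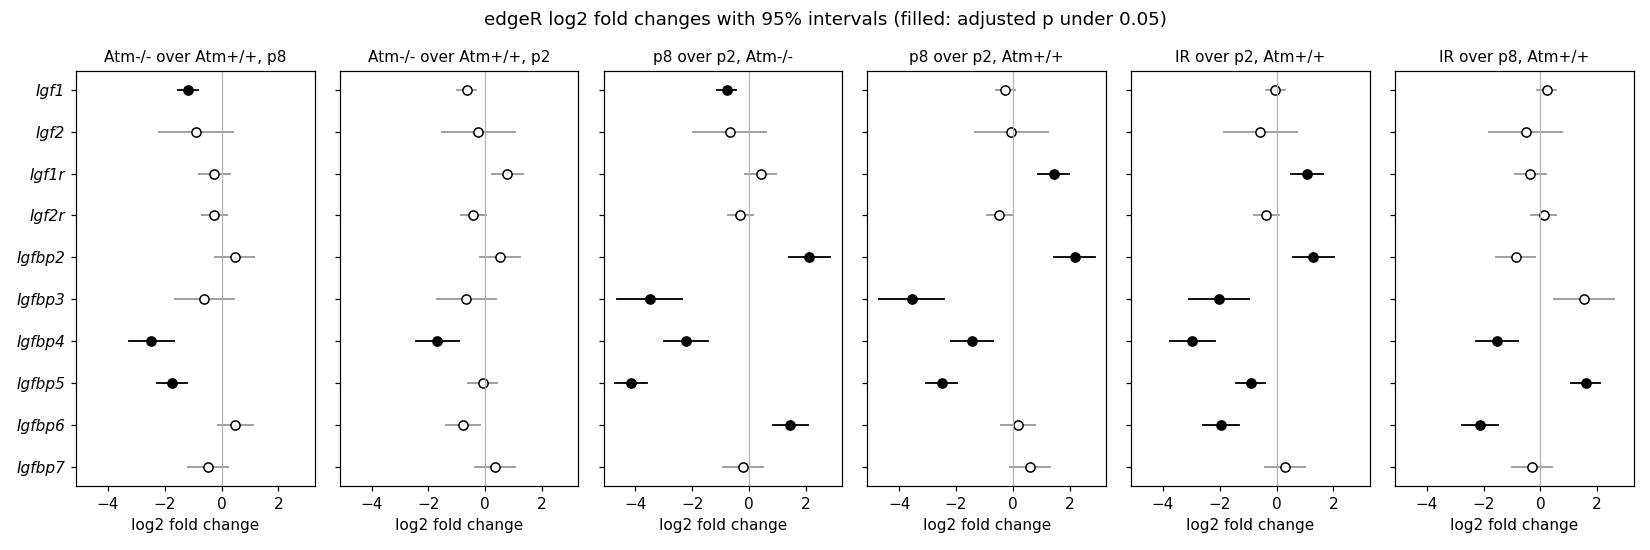
edgeR log2 fold changes with 95% intervals of the 10 genes in 6 comparisons, titled with the group on top of the fold change first; filled points have an adjusted p under 0.05. Igfbp3 and Igfbp5 have the largest falls in both passage panels and Igfbp4 in both genotype panels, and Igf2, Igf2r and Igfbp7 have no filled point.

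Irradiation was set against untreated Atm+/+ cells of the same passage label. Igfbp3, Igfbp4, Igfbp5 and Igfbp6 fell, and Igfbp2 and Igf1r rose. Igfbp4 fell by 2.97 in log2 (SE 0.37, edgeR adjusted p = 0.000171), Igfbp3 by 2.02 (SE 0.49, edgeR adjusted p = 0.00993), Igfbp6 by 1.95 (SE 0.29, edgeR adjusted p = 0.00063) and Igfbp5 by 0.92 (SE 0.24, edgeR adjusted p = 0.0127). Igfbp2 rose 2.46-fold (log2 1.30, SE 0.33, edgeR adjusted p = 0.0119) and Igf1r 2.10-fold (log2 1.07, SE 0.26, edgeR adjusted p = 0.00917). Groups did not overlap for any of these 6, nor for Igf2 and Igf2r, which did not pass. Of the 10 genes 2 rose and 4 fell, against 11.0% and 16.5% of all genes, and 4 did not pass. The median was -0.47 for the 10 genes and -0.01 for all. Igf1 was at -0.05 (95% interval -0.39 to 0.29), with overlapping groups. Igfbp5 was lost without irradiated replicate 1 (-0.77, edgeR adjusted p = 0.078) or 3 (-0.73, edgeR adjusted p = 0.0823) and in the TPM fits, and Igfbp3 without irradiated replicate 3 (-1.69, edgeR adjusted p = 0.0555). A fit of only these 2 groups lost Igf1r (edgeR adjusted p = 0.0616) and Igfbp5 (edgeR adjusted p = 0.0555). Of the 8 smooth muscle and pericyte markers 5 rose and 1 fell here, and 5 of 8 endothelial markers and 2 of 10 macrophage markers fell, and their part in the result was not tested. In 13 libraries 7 were called, against 22.9% of all genes higher and 23.3% lower, with Igf2r added (-0.44, edgeR adjusted p = 0.0365).

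Irradiated cells were also set against untreated Atm+/+ cells at passage 8, a comparison in which both the treatment and the passage label differ. Igfbp5 was higher in irradiated cells, and Igfbp4 and Igfbp6 were lower. Igfbp5 rose 3.02-fold (log2 1.59, SE 0.24, edgeR adjusted p = 0.000893), Igfbp6 fell by 2.13 in log2 (SE 0.30, edgeR adjusted p = 0.000477) and Igfbp4 by 1.53 (SE 0.35, edgeR adjusted p = 0.016). Of the 10 genes 1 rose and 2 fell, against 4.30% and 2.59% of all genes, and 7 did not pass. The median was -0.33 for the 10 genes and -0.01 for all. Beside the rise of Igfbp5, 9 of 10 macrophage and 8 of 8 endothelial markers rose, and their part in it was not tested. Igfbp3 was at 1.54 (SE 0.49, edgeR adjusted p = 0.0849) and passed without Atm-/- p8 replicate 1 (0.0133) or 3 (0.0333). Igfbp4 was lost without irradiated replicate 1 (edgeR adjusted p = 0.0752) or 2 (0.103) or Atm+/+ p8 replicate 2 (0.0691), and in the 3 limma fits on TPM (adjusted p = 0.0515, 0.0611 and 0.0859). In 13 libraries 6 were called, against 13.2% of all genes higher and 12.3% lower, with Igf1r (-0.34, edgeR adjusted p = 0.00456), Igfbp2 (-0.85, edgeR adjusted p = 0.0375) and Igfbp3 (1.56, edgeR adjusted p = 0.0273) added. A fit of only these 2 groups called 9, and it called 6214 genes in all, against 1252 in the fit of 15 libraries. All 3 Atm+/+ comparisons share libraries, so their values are not independent of each other.

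Other genes of the IGF system (14 listed, 10 tested) include the proteases that cut binding proteins and their inhibitors. At passage 8 against passage 2, 5 rose and 0 fell in Atm-/- cells and 5 rose and 0 fell in Atm+/+ cells, with median log2 fold changes of 0.53 and 1.03. All genes had 4.76% higher and 8.25% lower in Atm-/- cells and 9.80% higher and 13.5% lower in Atm+/+ cells. In 13 libraries 6 rose and 2 fell in Atm-/- cells and 7 rose and 1 fell in Atm+/+ cells, beside the larger shares of all genes given above for that fit. In Atm-/- cells Igf2bp1, an RNA-binding protein named for its binding of Igf2 mRNA, rose by 3.01 in log2 (SE 0.46, edgeR adjusted p = 0.000669). In Atm+/+ cells Htra1, a protease that cuts Igfbp5, rose by 1.31 (SE 0.16, edgeR adjusted p = 5.05e-05), Stc2, an inhibitor of Pappa, by 1.27 (SE 0.20, edgeR adjusted p = 0.000478) and Pappa, the protease that cuts Igfbp4, by 1.12 (SE 0.24, edgeR adjusted p = 0.00462). Htra1 also rose in Atm-/- cells, by 0.90 (SE 0.15, edgeR adjusted p = 0.00147). Pappa was at 61.98, 59.03 and 56.2 CPM in Atm+/+ p8 and 33.4, 31.6 and 16.7 CPM in Atm+/+ p2. In irradiated cells it was at 70.5, 89.5 and 70.9 CPM, 1.50 above Atm+/+ p2 in log2 (SE 0.24, edgeR adjusted p = 0.000963). Against passage 2, irradiated cells had 1 of the list higher and 2 lower, among them Stc1, another inhibitor of Pappa (-1.49, SE 0.29, edgeR adjusted p = 0.00304). Against passage 8 they had 0 higher and 3 lower, led by Stc2 (-1.85, SE 0.20) and Htra1 (-1.26, SE 0.15). Between genotypes 1 rose and 1 fell at passage 8 and 0 of 10 changed at passage 2. None of the 10 passed in the interaction. Of all genes 11.0% were higher and 16.5% lower in irradiated cells against passage 2, and 4.30% and 2.59% against passage 8. Between genotypes the shares were 5.03% higher and 4.29% lower at passage 8 and 0.628% and 0.341% at passage 2. In the interaction they were 2.46% and 1.97%. In 13 libraries 2 were higher and 4 lower in irradiated cells against passage 2, and 1 higher and 4 lower against passage 8. Between genotypes 1 rose and 2 fell at passage 8 and 0 of 10 changed at passage 2, and the interaction had 0 higher and 1 lower. For all genes that fit had, in the same order, 22.9% higher and 23.3% lower, 13.2% and 12.3%, 13.3% and 11.8%, 3.27% and 2.08%, and 6.54% and 7.28%.

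Of 27 genes from Igf1r to PI3K, AKT, TOR and FOXO, all tested, 2 rose and 3 fell with passage in Atm-/- cells and 6 rose and 3 fell in Atm+/+ cells. Of all genes 4.76% rose and 8.25% fell in Atm-/- cells and 9.80% rose and 13.5% fell in Atm+/+ cells. In 13 libraries 7 of the 27 rose and 4 fell in Atm-/- cells and 10 rose and 3 fell in Atm+/+ cells. That fit had 12.8% of all genes higher and 14.4% lower in Atm-/- cells and 19.8% higher and 20.3% lower in Atm+/+ cells. The medians were 0.07 in Atm-/- cells and 0.30 in Atm+/+ cells in 15 libraries, against -0.08 and 4e-04 for all genes. Foxo1, a transcription factor that IGF signalling keeps out of the nucleus, was at 6.23, 8.19 and 5.26 CPM in Atm-/- p8 and 12.6, 14.1 and 15.1 CPM in Atm-/- p2. It was at 11.9, 13.3 and 10.98 CPM in irradiated cells, 5.54, 6.51 and 5.41 CPM in Atm+/+ p8 and 20.7, 20.7 and 28.5 CPM in Atm+/+ p2. Passage 8 libraries were the low ones in both genotypes. The fall with passage was 1.08 on the log2 scale in Atm-/- cells (SE 0.20, edgeR adjusted p = 0.00285) and 2.00 in Atm+/+ cells (SE 0.21, edgeR adjusted p = 1.78e-05). Irs2, an adaptor of the receptors, fell by 0.94 in Atm-/- cells (SE 0.17, edgeR adjusted p = 0.00232). It also fell in Atm+/+ cells (-0.595, SE 0.17, edgeR adjusted p = 0.0244). Pdpk1, the kinase that activates AKT, rose by 1.40 in Atm+/+ cells (SE 0.26, edgeR adjusted p = 0.00172). In Atm-/- cells Pdpk1 did not pass (0.165, edgeR adjusted p = 0.713). Neither Irs2 nor Pdpk1 passed in the interaction (edgeR adjusted p = 0.343 and 0.0589). Irradiation against passage 2 had 6 higher and 1 lower, with Pdpk1 among the higher (1.51, SE 0.26, edgeR adjusted p = 0.00146). Against passage 8 it had 2 higher and 0 lower. The shares of all genes were 11.0% higher and 16.5% lower against passage 2, and 4.30% higher and 2.59% lower against passage 8. At passage 8, 1 was higher and 2 were lower in Atm-/- than in Atm+/+ cells, against 5.03% and 4.29% of all genes. At passage 2, 0 of 27 passed between genotypes, against 0.628% higher and 0.341% lower. The interaction had 0 higher and 1 lower, against 2.46% and 1.97%. In 13 libraries 9 were higher and 1 lower with irradiation against passage 2, and 3 higher and 2 lower against passage 8. Between genotypes that fit had 2 higher and 2 lower at passage 8 and 1 higher and 1 lower at passage 2. Its interaction had 2 higher and 3 lower. For all genes it had, in the same order, 22.9% higher and 23.3% lower, 13.2% and 12.3%, 13.3% and 11.8%, 3.27% and 2.08%, and 6.54% and 7.28%.

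Of 9 imprinted growth genes, all tested, 2 rose and 2 fell with passage in either genotype. Their medians were -0.60 in Atm-/- cells and -1.44 in Atm+/+ cells, against -0.08 and 4e-04 for all genes. The shares of all genes were 4.76% higher and 8.25% lower in Atm-/- cells and 9.80% and 13.5% in Atm+/+ cells. In 13 libraries 4 of the 9 rose and 3 fell in Atm-/- cells and 3 rose and 3 fell in Atm+/+ cells. There the shares of all genes were 12.8% and 14.4% in Atm-/- cells and 19.8% and 20.3% in Atm+/+ cells. H19, the noncoding RNA that lies beside Igf2 and is expressed from the other parental copy, was at 4.13, 6.49 and 0 CPM in Atm-/- p8, 19.1, 17.7 and 22.9 CPM in Atm-/- p2, 8.78, 7.95 and 6.99 CPM in irradiated cells, 9.07, 9.57 and 8.15 CPM in Atm+/+ p8 and 43.4, 33.9 and 32.1 CPM in Atm+/+ p2. It fell with passage by 2.42 in Atm-/- cells (SE 0.65, edgeR adjusted p = 0.0249) and by 2.03 in Atm+/+ cells (SE 0.63, edgeR adjusted p = 0.0341), calls that 18 and 12 of 25 alternatives kept, while Igf2 did not pass in either. Mest, an imprinted gene of mesoderm, fell by 4.87 in Atm-/- cells (SE 0.68) and fell by 4.83 in Atm+/+ cells (SE 0.66), and Meg3, a noncoding RNA, rose by 1.16 (SE 0.21) and 1.95 (SE 0.21), with edgeR adjusted p of 0.00033, 0.000177, 0.00182 and 2.54e-05 in this order. Irradiation against passage 2 had 1 higher and 2 lower, beside 11.0% and 16.5% of all genes, Meg3 rising by 1.56 (SE 0.21, edgeR adjusted p = 0.000289). Against passage 8 it had 1 higher and 0 lower, beside 4.30% and 2.59%. Between genotypes 1 of 9 rose at passage 8 and 0 at passage 2, beside 5.03% and 0.628% of all genes. The interaction had 1 higher and 0 lower, beside 2.46% and 1.97%. In 13 libraries 2 were higher and 3 lower with irradiation against passage 2, and 2 higher and 0 lower against passage 8. Between genotypes that fit had 3 higher and 1 lower at passage 8 and 0 higher and 1 lower at passage 2. Its interaction had 2 higher and 1 lower. For all genes it had, in the same order, 22.9% higher and 23.3% lower, 13.2% and 12.3%, 13.3% and 11.8%, 3.27% and 2.08%, and 6.54% and 7.28%.

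The tested genes whose log2 CPM followed each member most closely over the 15 libraries were found among 10305 genes. These correlations are descriptions, since libraries share groups, passage and cell makeup. Igfbp5 was most like Chil3 (r = 0.991), Marco (r = 0.988) and Ecscr (r = 0.986), of which Marco is in the macrophage marker list. Igfbp3 was most like S1pr3 (r = 0.978), Efna1 (r = 0.975) and Col18a1 (r = 0.974), and Igfbp4 like Spint2 (r = 0.971), Lcn2 (r = 0.968) and Rspo1 (r = 0.964). Igf1 was most like Rasl12 (r = 0.958), Abi3bp (r = 0.947) and Trim68 (r = 0.941), and Igfbp2 like Lonp1 (r = 0.970), Mapk13 (r = 0.958) and Ephx2 (r = 0.955). Igf1r followed Ldha (r = 0.989), Arl1 (r = 0.979) and Serpini1 (r = 0.979), while Igfbp6 followed Tns2 (r = 0.970), Kxd1 (r = 0.951) and Macrod1 (r = 0.949). Igf2, which was low in Atm-/- p8 replicate 3, followed Abhd10 (r = 0.983), Agbl5 (r = 0.978) and Zfp523 (r = 0.977). Igfbp7, which was low in both libraries that stood apart, followed Alg14 (r = 0.965), Gng5-ps (r = 0.963) and Bcl10 (r = 0.963). Igf2r had the weakest likes, Pan2 (r = 0.861), Itm2a (r = 0.856) and Ermp1 (r = 0.851).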

How the data were processed

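The authors deposited gene counts for 15 libraries of total RNA and TPM (transcripts per M transcripts, 48082 genes). The tools named are featureCounts and SAMtools 1.3.1, and the build is mm10, per the submitters' processing notes. Aligner and strand setting were not given in the sources used here. Igf2os, Igf1os and Airn overlap Igf2, Igf1 and Igf2r on the opposite strand, and Polr2b and Gm34648 overlap Igfbp7 in the same way. Gm49394, which covers nearly all of Igf2, and Mir483 overlap Igf2 on its own strand. Reads from these overlaps could not be told apart from those of the members. Their effect on the Igf2 level and the ligand shares was not tested. Identifiers were matched to GENCODE vM21 (GRCm38), which named 48058 of 48440 genes, and RefSeq promoters to all 10 members.

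From the deposited counts, genes passed filterByExpr (18167), libraries were scaled by TMM, and 1 robust quasi-likelihood fit of edgeR 4.0.16 (R 4.3.3) with a mean per group held all 15 libraries. Contrasts were adjusted by Benjamini and Hochberg over all genes tested, at 0.05. CPM are TMM-scaled counts per M counts, and SE is the log2 fold change over the root of F. P-values measure the spread between libraries within groups. Whether the same strain recurs across groups is not stated in the labels, and any such pairing was left out of this fit. Members and lists were chosen with earlier results of these data known. All members are named, up to 4 genes of each list with the lowest p per comparison, and the 3 genes most like each member (mean log2 CPM of at least 2). Alternatives were DESeq2 1.42.0, its size factors, other filters, only the groups compared, limma 3.58.1 on log2(TPM + 1) and log2(TPM + 0.1), each library left out, the replicate number as a block, and 13 libraries. In simulated counts for Atm-/- against Atm+/+ cells at passage 8 (17824 genes), the fit called 41 of 50 genes with a log2 change of -2, 38 of 50 with 2, 15 of 50 with -1, 18 of 50 with 1, and 3 of 17624 unchanged genes. The values of 1 gene under the rule for named genes are not reported here. Shares and per-ligand ratios come from the deposited TPM and have no test.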

Additional observations from a re-analysis of the deposited data

Results flagged for a closer look

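The effect of passage on Igfbp5 differed between the genotypes by a test of the difference itself. The log2 fold change of passage 8 over passage 2 was -4.16 in Atm-/- cells and -2.51 in Atm+/+ cells, a difference of -1.65 (SE 0.33, edgeR adjusted p = 0.0226). Igfbp5 lay between 46.3 and 72.8 CPM in Atm-/- p8 and between 163 and 242 CPM in Atm+/+ p8, while the passage 2 groups overlapped. The call was lost when any of 5 of the 15 libraries was left out (edgeR adjusted p = 0.0576 to 0.0703) and in limma on log2(TPM + 1) without a filter (adjusted p = 0.0657).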

How the results depend on the processing

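All 25 calls kept their direction in all 25 alternatives, 583 of 625 values on the same side of the threshold and 42 no longer past it. Of 1125 values of the other member results, 38 came to pass and 54 changed sign. The 47 named calls of other genes kept their direction in all 1169 values, 206 of them no longer past the threshold. Between genotypes at passage 2, the number of members called (1) was 2 in DESeq2, 0 in each of the 3 limma fits, 3 in 13 libraries and 0 to 4 with 1 library left out. At passage 8 (3) it was 0 in a fit of only the groups compared. For irradiated cells against passage 8 (3) it was 9 in a fit of only the groups compared, which called 6214 genes in all, and 6 in 13 libraries. For the interaction (1) it was 3 in DESeq2, 2 in limma on log2(TPM + 1), 0 in that fit without a filter, 2 in 13 libraries and 0 to 3 with 1 library left out. The cause was not tested.

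The replicate number shared between groups could not be shown to mark a strain. With each group's mean subtracted, libraries of 1 number correlated at -0.20 to 0.19 between the groups of 1 genotype, not above 0.1 in every pair. A fit with the replicate block called 0 members between genotypes at passage 2 (Igfbp4, edgeR adjusted p = 0.0555), 4 for irradiated cells against passage 8 and the same number as without it in the other 5 comparisons. It moved the interaction of Igfbp3, which was not called, to -0.23.

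Signs turned only in results that were not called. In limma on log2(TPM + 1), log2(TPM + 0.1) and log2(TPM + 1) without a filter, Igfbp5 between genotypes at passage 2 was 0.17, 0.18 and 0.17, Igf2 with Atm+/+ passage 0.14, 0.16 and 0.14, and Igf1 with irradiation against passage 2 0.39, 0.39 and 0.39. Igf2r was 0.10, 0.10 and 0.10 in that last comparison and -0.43, -0.47 and -0.43 in the interaction, and Igfbp3 -0.78, -0.81 and -0.78 in the interaction. In 13 libraries Igf2 with Atm+/+ passage was 0.0134, Igfbp7 with Atm-/- passage 0.15, Igf1 with irradiation 0.13 and the interaction of Igfbp3 -0.31. Igf1 with irradiation was 0.0029 in a fit of only the groups compared. The interaction of Igfbp2 was 0.0017 in DESeq2, 5e-04 with its size factors and 0.0199 under the strict filter. With 1 library left out, Igfbp5 between genotypes at passage 2 ran from -0.23 to 0.0791, Igf2 from -0.17 to 0.0878 and Igfbp6 from -0.007 to 0.47 with Atm+/+ passage, Igfbp7 from -0.46 to 0.15 with Atm-/- passage, and Igf1 from -0.0722 to 0.14 with irradiation. Interactions ran from -0.10 to 0.33 for Igf2r, -0.49 to 0.48 for Igfbp3 and -0.50 to 0.27 for Igfbp2.

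Genes called in all moved by over 1.5 times. They numbered 176 (40 to 1787) between genotypes at passage 2, 1693 (18 to 4629) at passage 8, 2362 (868 to 5026) and 4227 (2186 to 7500) with Atm-/- and Atm+/+ passage, 4998 (2677 to 8561) for irradiation against passage 2, 1252 (722 to 6214) against passage 8 and 804 (79 to 4600) for the interaction. On log2(TPM + 1) the median of all genes lay between -0.51 and 0.32 over the comparisons, so TPM fold changes are relative to a moved centre. The 11 counts of Igf2 in 1 library limit what can be said of it.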
